A study of Mus musculus with 2 samples.

Results

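Ion channel and purinergic receptor genes were followed in eosinophils sorted from the colon of naive mice. The members are the 200 genes of the deposited table whose symbols belong to the potassium, calcium, sodium, chloride and TRP channel families, the CLIC, P2X and P2Y families, the STIM, ORAI, inositol trisphosphate receptor and ryanodine receptor families, the proton channel Hvcn1 and the Piezo channels. They are 200 of 23477 genes and cover 352 of 31295 transcript rows. Each gene is given by its row with the most reads. Of the 200, Kcnq1ot1 is a noncoding RNA and Trpc4ap an adaptor protein, and the other 198 are genes of channels, transporters and receptors, their subunits, sensors and regulators. The members were picked by symbol and not by a measured value, though earlier results of these data were known.

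Eosinophils are granulocytes that live in the gut wall in health. The study holds 1 group of 2 samples, wild-type C57BL6 mice with no treatment, whose digested colons gave eosinophils by flow cytometry. The sources used here give neither the number of mice nor the gate of the sort. Messenger RNA was read near its 3′ end by CEL-Seq, in 3 technical libraries per sample. For each transcript the deposited values are 1 read total and 1 RPKM, averaged over the 6 libraries, so no value per sample, SD, n or test is printed. RPKM is the read count scaled to transcript length and to library size.

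The reads on genes came to 7692119 over the 6 libraries. A value in brackets after an RPKM is the exact 95% Poisson interval of its reads, which covers counting error only. A count of 0 allows up to 3 reads, or an RPM of 0.390, where RPM is the read count scaled to all reads on genes without length. Of 8 eosinophil marker genes, 7 reached an RPKM of 1, from Il5ra at 18.6 to Alox15 at 230, and Epx stood at 0.265. Markers of other colon cells were present too. All 7 epithelial markers reached an RPKM of 1, from Cdh1 at 5.09 to Epcam at 89.3, with a sum of 251. All 5 goblet cell markers did so with a sum of 138, and 5 of 6 fibroblast markers with a sum of 137. For smooth muscle 5 of 6 markers reached it, with a sum of 54.5, and for macrophages 5 of 6, with a sum of 143 and Mertk at 0. All 3 erythrocyte markers did, with a sum of 942, against 2 of 7 neutrophil markers, with a sum of 35.3, S100a9 at 23.9, S100a8 at 10.2 and Elane and Mpo at 0, and 2 of 6 mast cell markers, with a sum of 4.28. Of 5 B and plasma cell markers 2 reached it, with a sum of 46.8, Jchain at 44.1 and Mzb1 at 1.83. So did 1 of 4 endothelial markers, Pecam1 at 16.3, and 3 of 5 T cell markers, with a sum of 4.30. In this bulk RNA, fewer cells of a type and less RNA per cell cannot be told apart.

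Ion channels set the calcium, proton, potassium and chloride flows of a leukocyte, and so bear on secretion, the oxidative burst and cell volume. Engaged surface receptors empty the calcium store through inositol trisphosphate receptors, the STIM proteins sense the emptied store, and the ORAI channels let calcium in. ATP and other nucleotides released from cells act through P2X receptors, which are ATP-gated cation channels, and P2Y receptors, which couple to G proteins.

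An RPKM of 1 was reached by 28 of the 200 members, 14%, against 31.0% of all genes. At an RPM of 1 the members numbered 73, or 36.5%, against 50.9% of all genes. The 28 span most families but are uneven. P2ry14, Clic1 and P2rx1 together held 54.8% of the summed member RPKM of 422, and the first 8 genes held 80.6%. These shares rest on the scaling to length and were smaller by reads. Of 18515 member reads, P2ry14 had 3416, P2rx1 2001 and Clic1 1429. A further 120 members had reads but stayed under an RPKM of 1, and 52 were listed at 0. The median member stood at 0.0542, against 0.186 over all genes. Members above 0 numbered 148, or 74.0%, against 69.0% of all genes, so the members were detected about as often as other genes but mostly at a low level. Many rest on few reads: 138, among them the 52 at 0, had 10 reads or fewer over all libraries, and 45 had 1 to 3.

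**Figure D1:**
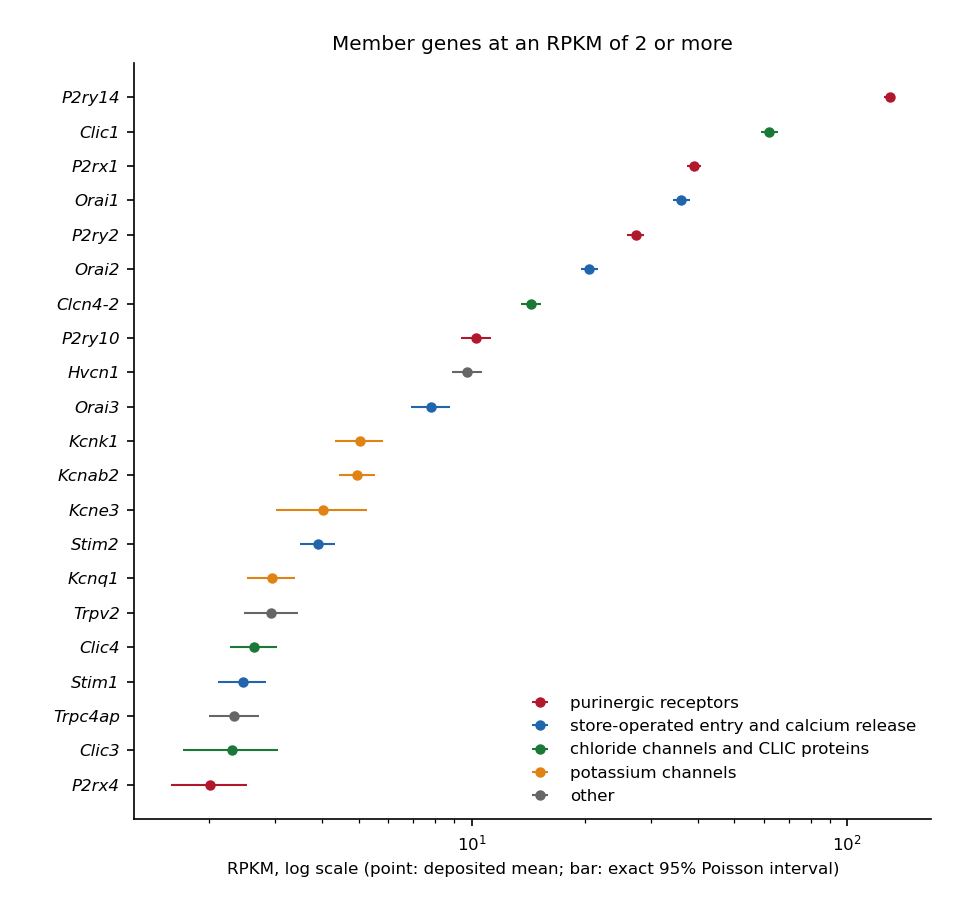
RPKM on a log axis of the members at 2 or more, with points for the deposited means, bars for exact 95% Poisson intervals of the reads and colours for the kind of protein. P2ry14 at 130 stands above Clic1 at 62.0, and from Kcnk1 downward most neighbouring intervals overlap.

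P2ry14 was first by RPKM and by RPM, but the order of the next genes rested on the scaling to length. By reads, P2rx1 with 2001 and P2ry2 with 1505 passed Clic1 with 1429. On the RPKM scale, among the 27 neighbouring pairs of these 28 genes, 18 had overlapping intervals. The intervals of P2rx1 and Orai1, at 39.1 and 36.2, overlapped, as did those of P2ry10 and Hvcn1, at 10.3 and 9.71. Overlap does not by itself mean that counting error could account for a difference. The steps from P2ry14 to Clic1 to P2rx1, from Orai1 to P2ry2 to Orai2 to Clcn4-2 to P2ry10, from Hvcn1 to Orai3 to Kcnk1 and from Stim2 to Kcnq1 left no overlap. The gene just above an RPKM of 1 was P2ry13 at 1.06 and the one just below was Trpm7 at 0.857. The intervals of 5 members held the value 1.

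Purinergic receptors led the members. The 8 P2Y genes held 40.2% of the summed member RPKM and the 7 P2X genes 9.95%. Without length, they had 5489 and 2106 of the 18515 member reads. P2ry14, the receptor for UDP-glucose and other UDP sugars, had an RPKM of 130 (125 to 134) from 3416 reads. That was higher than 99.1% of all genes and first among members by RPKM and by RPM. Its row, NM_001008497, lies in mm10 at chr3:59114625-59130624 on the minus strand. A further row of the gene with the same ends had 8 reads.

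P2ry2, the receptor for ATP and UTP, stood at 27.4 (26.0 to 28.8) and lies at chr7:100996572-101011991. P2ry10, a receptor for lysophosphatidylserine despite its name, stood at 10.3 (9.38 to 11.3). The ADP receptor P2ry13 followed at 1.06 (0.772 to 1.41). Below an RPKM of 1 were the ADP receptor P2ry1 at 0.542 (0.389 to 0.735), the UDP receptor P2ry6 at 0.269 (0.135 to 0.482) and P2ry4 at 0.0847 from 5 reads. P2ry12, the ADP receptor of platelets and microglia, had 1 read. The 3 highest P2Y genes thus encode receptors for UDP sugars, for ATP and UTP and for a lipid, while the 3 ADP receptor genes stood at 1.06 or below.

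P2rx1, whose channel opens and desensitises quickly with ATP, carried nearly all of the P2X signal. Its RPKM was 39.1 (37.4 to 40.9) from 2001 reads, and its row lies at chr11:72999145-73015197. P2rx1 is also well known on platelets: of 4 platelet markers 3 reached an RPKM of 1, from 0 for Gp9 to 19.1 for Itga2b, with a sum of 31.2, and their part in the P2rx1 value was not tested. P2rx4, found on lysosomes as well as the surface, stood at 2.01 (1.58 to 2.52), so that P2rx1 was 19.5-fold higher (15.4 to 24.9). P2rx4 had 74 reads, so that the ratio was larger before scaling to length. P2rx7, the receptor that drives the inflammasome at high ATP, stood at 0.696 (0.455 to 1.02) from 26 reads. Its other 3 rows had 7, 6 and 2 reads, and with all rows added its RPKM was 1.10. P2rx3 had 5 reads, and P2rx2, P2rx5 and P2rx6 were listed at 0.

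To show the starts of these receptor genes, 300 bases of promoter, 250 before the start and 50 after it, are printed for the P2Y gene with the highest level, its low neighbour P2ry12, P2rx1 and P2ry10. They come from RefSeq on GRCm38.p6, the build family of mm10, 5′ to 3′ on the gene's strand. Capitals mark AGATAA (the motif of GATA factors) and GAGGAAGT (the core motif of PU.1), searched on both strands. On the opposite strand they read TTATCT and ACTTCCTC.
P2ry14, chr3:59130713-59131012, minus strand: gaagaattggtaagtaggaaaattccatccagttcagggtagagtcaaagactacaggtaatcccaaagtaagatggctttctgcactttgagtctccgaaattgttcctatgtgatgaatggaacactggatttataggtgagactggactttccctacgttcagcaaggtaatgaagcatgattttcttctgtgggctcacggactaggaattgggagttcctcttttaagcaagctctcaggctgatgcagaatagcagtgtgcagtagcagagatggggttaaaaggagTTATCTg
P2ry12, chr3:59262936-59263235, minus strand: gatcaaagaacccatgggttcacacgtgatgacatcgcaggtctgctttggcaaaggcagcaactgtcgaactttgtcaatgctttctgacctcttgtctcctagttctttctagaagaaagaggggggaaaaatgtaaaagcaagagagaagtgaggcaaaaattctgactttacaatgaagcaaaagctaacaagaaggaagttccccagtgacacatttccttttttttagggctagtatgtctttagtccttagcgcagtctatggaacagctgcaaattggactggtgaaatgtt
P2rx1, chr11:72998895-72999194, plus strand: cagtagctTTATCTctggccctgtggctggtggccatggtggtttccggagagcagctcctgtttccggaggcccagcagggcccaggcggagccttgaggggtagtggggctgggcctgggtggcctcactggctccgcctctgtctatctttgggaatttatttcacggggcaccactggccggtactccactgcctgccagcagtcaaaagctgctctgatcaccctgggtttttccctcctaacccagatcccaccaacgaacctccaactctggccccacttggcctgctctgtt
P2ry10, chrX:107089083-107089382, plus strand: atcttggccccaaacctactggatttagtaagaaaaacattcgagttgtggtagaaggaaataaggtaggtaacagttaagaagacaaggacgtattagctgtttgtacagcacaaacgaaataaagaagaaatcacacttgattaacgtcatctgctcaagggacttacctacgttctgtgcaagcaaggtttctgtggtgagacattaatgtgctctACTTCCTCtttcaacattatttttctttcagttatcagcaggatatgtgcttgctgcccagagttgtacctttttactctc

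The P2ry14 stretch is that of the annotated start nearest to the start of its row, 138 bases away, and holds the GATA motif on the opposite strand 43 bases past the start. In P2rx1 the same motif begins 242 bases before the start, and in P2ry10 the PU.1 core begins 31 bases before it. Neither motif is in the P2ry12 stretch, whose annotated start lies 154 bases from the start of its row. Of the 28 members at an RPKM of 1 or more, 23 matched an entry. The GATA motif was in 2 of these, 8.70%, against 11.2% of all 32851 promoters in that set. The PU.1 core was in 2, 8.70%, against 3.20% of all; the other gene with it was Trpv2. These are matches of letters in a short window, and nothing about either factor follows from them.

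Several purinergic genes sit beside each other in the genome, and neighbours differed widely. P2ry14 lies 77.3 kb from P2ry13 and P2ry12 a further 5.39 kb away, all on the minus strand of chromosome 3. P2ry14 was 123-fold higher than P2ry13 (91.9 to 168). Their reads, before scaling to length, were 3416 and 46, a smaller ratio. On chromosome 7, P2ry2 lies 32.2 kb from P2ry6 and was 102-fold higher (56.6 to 204). On chromosome 11, P2rx1 lies 145 kb from P2rx5, which was listed at 0, as was Trpv3, and Trpv1 had 3 reads. On chromosome 5, Hvcn1, P2rx7, P2rx4 and Orai1 lie in that order with 402, 23.3 and 286 kb between them, at RPKM values of 9.71, 0.696, 2.01 and 36.2. In all, 84 members fall into 33 groups in which neighbours are at most 500 kb apart.

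**Figure D2:**
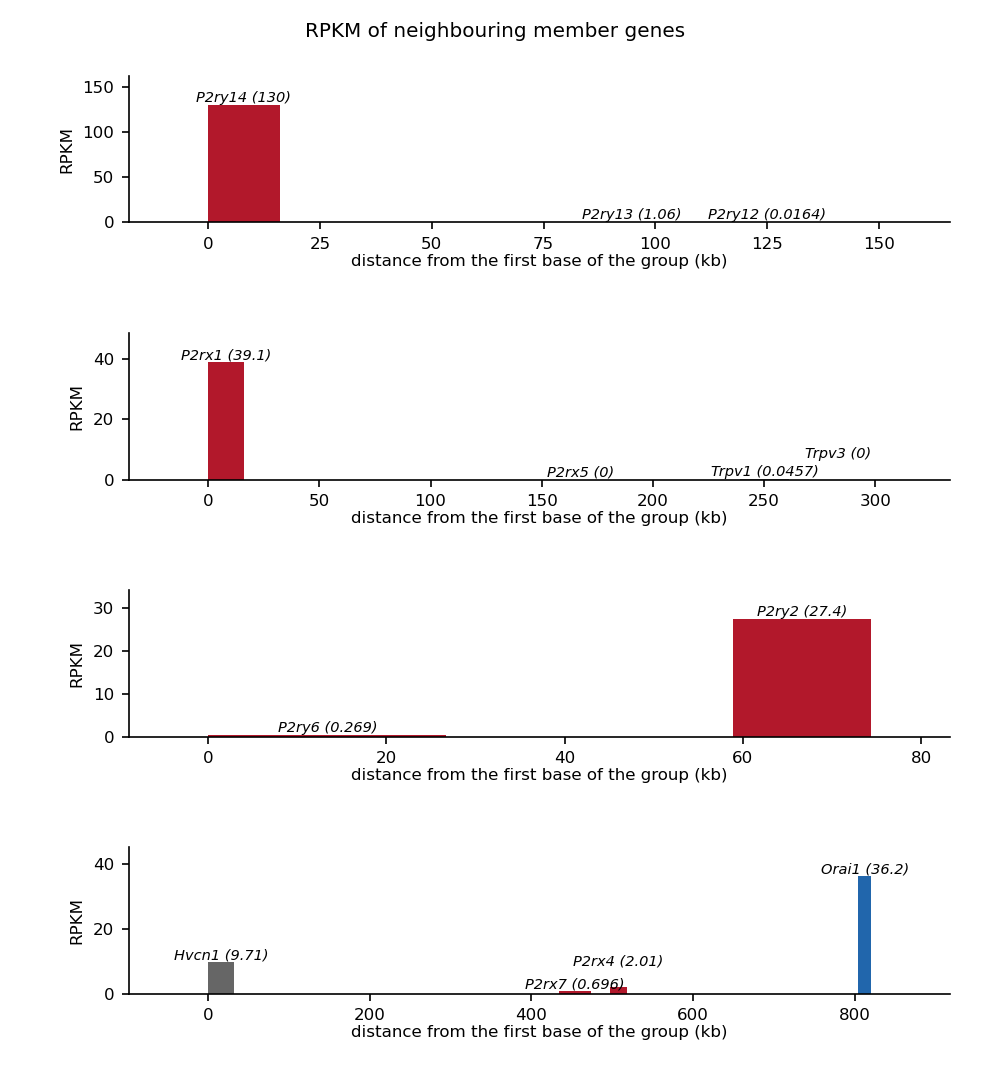
RPKM of members in 4 genomic groups against the distance in kb from the first base of each group, with bars as wide as the gene (at least 3 kb) and the RPKM in brackets. In the first 3 groups, 1 gene stands at 27.4 to 130 beside neighbours at 1.06 or less.

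All 5 genes of store-operated calcium entry reached an RPKM of 1, where 31.0% of all genes did. By RPKM, the pore genes stood above the sensor genes. Orai1, the main pore of the calcium release-activated current, had 36.2 (34.3 to 38.1), Orai2 20.6 (19.5 to 21.7) and Orai3 7.80 (6.90 to 8.77). The store sensor Stim2 stood at 3.89 (3.48 to 4.33) and Stim1 at 2.45 (2.11 to 2.83). Orai1 was 1.76-fold higher than Orai2 (1.63 to 1.89) and 14.7-fold higher than Stim1 (12.6 to 17.3), and Stim2 was 1.58-fold higher than Stim1 (1.32 to 1.90). Orai1 lies at chr5:123015074-123030452, Orai2 at chr5:136147461-136170656 and Stim1 at chr7:102267824-102436855. CEL-Seq gives about 1 tag per molecule whatever the length, whereas RPKM scales to length, so ratios between short and long transcripts rest on that scaling. Before it, the reads came to 1411 for Orai1, 1382 for Orai2, 276 for Orai3, 336 for Stim2 and 187 for Stim1, so that Stim2 passed Orai3.

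Among the calcium release channels of the store, the inositol trisphosphate receptors stood above the ryanodine receptors. By RPKM, Itpr2 was above 76.4% of all genes, Itpr1 above 64.8% and Itpr3 above 62.6%. Itpr2 had an RPKM of 1.88 (1.71 to 2.07), Itpr1 0.712 (0.587 to 0.855) and Itpr3 0.579 (0.467 to 0.711). Itpr2 was 2.64-fold higher than Itpr1 (2.14 to 3.28), from 423 and 114 reads. These are among the longest transcripts of the members, and by RPM Itpr2, with 423 reads, ranked 11 in place of 22. The ryanodine receptors, which release calcium in muscle and nerve, had 40 reads for Ryr3, 31 for Ryr2 and 8 for Ryr1, all under an RPKM of 0.18. The last 500 bases of Ryr3 lie wholly within exons of Aven on the other strand, so its reads cannot be told apart from those of Aven if the counting ignored strand.

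Other genes of calcium signalling were taken from 2 lists. Of 21 store pumps, entry modulators and exchangers, 12 reached an RPKM of 1. Selenok, a selenoprotein of the endoplasmic reticulum that supports calcium flux in immune cells, had 187 and Saraf, which switches off store-operated entry, 30.8. Of 15 phospholipase C and calcium sensor genes, 10 did, with the calmodulin gene Calm2 at 1076 and the phospholipase Plcg2 at 130. Over these and the lists for nucleotides and for other chloride and TRP-like channels, 36 of 66 genes reached an RPKM of 1, 54.5%, against 31.0% of all genes and 14% of members.

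Among genes for the release and breakdown of nucleotides, 6 of 15 reached an RPKM of 1, 40.0%, against 31.0% of all genes. Entpd1, the CD39 enzyme that removes phosphates from extracellular ATP and ADP, led at 31.1 (29.8 to 32.4). Slc17a9, which loads nucleotides into vesicles, stood at 3.47, Entpd5 at 2.08 and Nt5e, the CD73 enzyme that makes adenosine from AMP, at 1.58. Panx1, a large-pore ATP release channel, had 12 reads, and Panx2 and Entpd4 were listed at 0. Nt5e and Panx1 were named after their values were seen.

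In the CLIC and CLC families 1 gene stood well above the rest, and the proton channel has a single gene. Hvcn1, which lets protons out to balance the charge moved by the NADPH oxidase, stood at 9.71 (8.85 to 10.6). It lies at chr5:122210298-122242297, and both of its rows list the same 467 reads. Exons of Tctn1 on the other strand cover 38 of its last 500 bases. Clic1, a soluble protein with a glutathione transferase fold that can insert into membranes, had 62.0 (58.8 to 65.3) and lies at chr17:35050243-35058719. It was 23.6-fold higher than Clic4 at 2.63 (20.3 to 27.6). This ratio rests in part on the scaling to length: the reads were 1429 for Clic1 and 193 for Clic4, a smaller ratio. Clic3 stood at 2.31 and Clic5 at 1.21, and Clic6, at 0.440, was the CLIC gene under 1.

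Of 9 CLC genes, Clcn4-2 alone reached an RPKM of 1, at 14.4 (13.5 to 15.3). It encodes an exchanger of chloride for protons on endosomes and lies at chr7:7282316-7299511. Clcn7, the lysosomal exchanger, stood at 0.574 (0.413 to 0.775), so that Clcn4-2 was 25.1-fold higher (18.4 to 35). Ostm1, the partner subunit of Clcn7, had 3.47. Clcn3 stood at 0.321 from 52 reads, but its 4 rows had 52, 38, 38 and 0, and with all rows added its RPKM was 1.29. Clcn5 had 1 read, and 2 genes of the family were listed at 0, where 31.0% of all genes were. Of 15 other chloride and TRP-like channel genes, 8 reached an RPKM of 1, 53.3%, against 31.0% of all genes. They were led by Ano6, a scramblase and ion channel, at 13.6. Next came Lrrc26, an auxiliary chain of Kcnma1 channels, at 3.94 and the lysosomal channel Mcoln1 at 3.59.

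Potassium channels were the most numerous members and mostly low. Of 94 genes for their pores and accessory chains, 7 reached an RPKM of 1, where 31.0% of all genes did. Kcnk1, a two-pore-domain background channel, stood at 5.03 (4.34 to 5.81), overlapping with Kcnab2, a cytoplasmic beta chain of voltage-gated channels, at 4.96 (4.44 to 5.53). Kcne3, a single-span chain that holds Kcnq1 open, stood at 4.03 (3.01 to 5.28) and Kcnq1 at 2.93 (2.53 to 3.39). Before scaling to length, the reads were 329 for Kcnab2, 188 for Kcnk1, 184 for Kcnq1 and 52 for Kcne3, so that the order of Kcne3 and Kcnq1 turned over, and Kcne3 ranked 33 by RPM in place of 13. The calcium-activated channel Kcnn4 had 1.59 (1.20 to 2.08) and the two-pore-domain channel Kcnk6 1.29 (1.04 to 1.58). Kcnq1 with Kcne3 is a known channel of gut epithelium. All 7 epithelial markers were above both genes, at 5.09 to 89.3, and their part in the values of Kcnq1 and Kcne3 was not tested.

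Several potassium channels that are well known in other cells had few reads or none. Kcna3, the voltage-gated channel of T cells, had 1 read, and the inward rectifier Kcnj2 of macrophages had 5. Kcnma1, the large-conductance channel of smooth muscle, had 1 read in its leading row of 22, and Kcnk13 was listed at 0 in all 3 rows. No gene of the 15 inward rectifiers reached an RPKM of 1, where 31.0% of all genes did. Kcnj8 was highest at 0.452, and 8 of the 15 were listed at 0, among them Kcnj1, Kcnj11 and Kcnj15. Of 14 two-pore-domain genes 7 were listed at 0, among them Kcnk4 and Kcnk9, and of 40 voltage-gated genes 12, among them Kcns1 and Kcns3. Over all genes 31.0% were listed at 0, so 12 of 40 was no excess, while 8 of 15 and 7 of 14 were above that share. Kcnq1ot1, the imprinted noncoding RNA that lies within Kcnq1 on the other strand, had 608 reads but an RPKM of 0.422, since its transcript is very long, and ranked 8 among members by RPM.

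TRP channels were low. Of 21 genes, Trpv2, a calcium-permeable channel of phagocytes, alone reached an RPKM of 1, where 31.0% of all genes did. It stood at 2.93 (2.47 to 3.45). Of its last 500 bases, 22.1% of the 35-base words also occur in another gene. Trpm7, a channel fused to a kinase, stood at 0.857 (0.698 to 1.04), and its 2 rows list the same 101 reads. Trpm2, which ADP-ribose and oxidants open, had 0.490 (0.372 to 0.634) and Trpm4 0.240. Trpv4 had 2 reads, and 5 genes were listed at 0, among them Trpc5, Trpm5 and Trpv3, where 31.0% of all genes were. The adaptor Trpc4ap stood at 2.33. The stretch-activated channels Piezo1 and Piezo2 had 4 and 9 reads, and the last 500 bases of Piezo1 lie within exons of Ctu2 on the other strand.

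Voltage-gated calcium and sodium channels, the hallmark of excitable cells, were mostly under an RPKM of 1. None of the 26 calcium channel genes reached an RPKM of 1. Cacnb2 was highest at 0.319 from 14 reads, and 9 were listed at 0, among them Cacna1c in all of its 10 rows, Cacna1b and Cacna1s. Of the 14 sodium channel genes, 1 reached an RPKM of 1 and 2 were listed at 0. Over all genes 31.0% reached an RPKM of 1 and 31.0% were listed at 0. The zeros of these families were thus near or below that share. Among pore chains Scn7a had 27 reads and Scn3a 18, and Scn9a was listed at 0. Of 7 neuron markers, 2 reached an RPKM of 1, with Stmn2 at 4.62 and Chat at 0, and of 5 enteric glia markers 2, with Sox10 at 2.14. The part of nerve and muscle RNA in these reads was not tested.

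**Figure D3:**
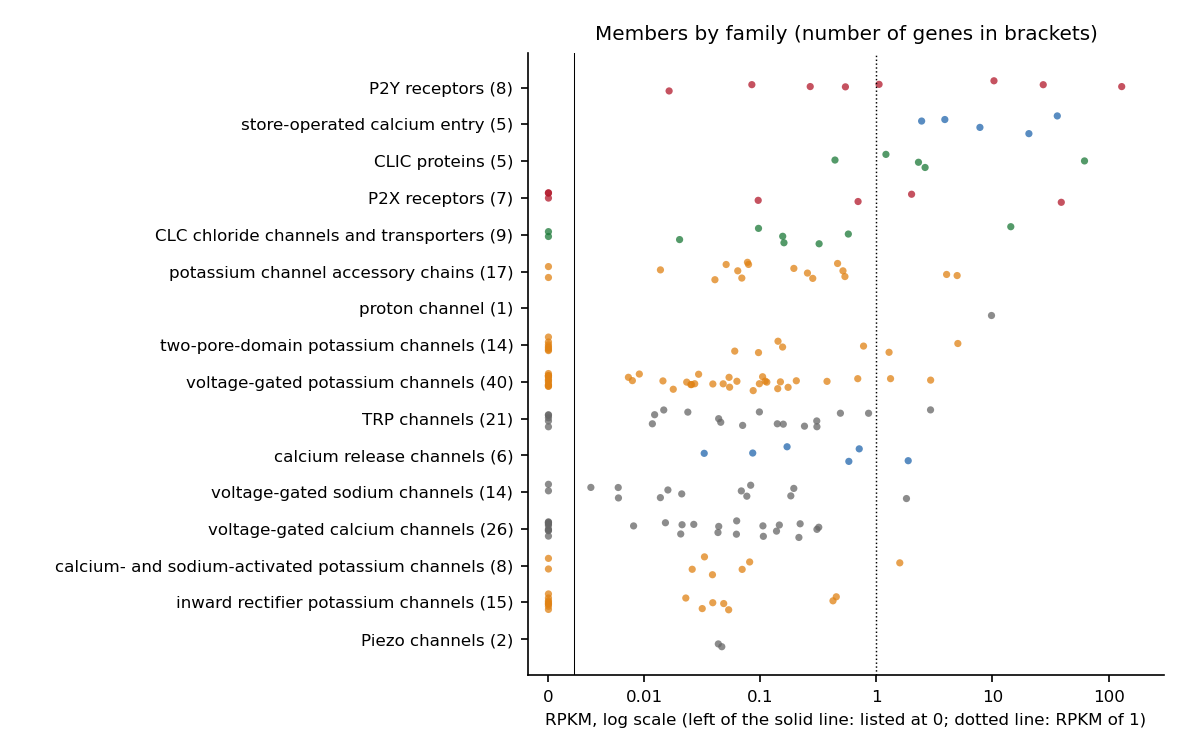
RPKM on a log axis of 198 members in 16 families, 1 point per gene, spread vertically for sight and coloured by kind of protein, with genes listed at 0 left of the solid line and the dotted line at an RPKM of 1. Store-operated entry is wholly right of the dotted line, whereas voltage-gated calcium channels and inward rectifiers are wholly left of it.

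The way transcripts are listed sets limits on the low values. Of the 58 members with several rows, 19 had 0 in all rows, 7 the same reads in every row and 32 unequal reads. Rows with the same ends could differ widely, as in P2ry14 with 3416 and 8 reads and Itpr2 with 423 and 0. The 5 rows of Kcne3 had 52, 18, 0, 0 and 0. A member was listed at 0 in 23.2% of genes with 1 row and in 32.8% of those with several, against 32.9% and 22.6% over all genes. How far the listing of rows bears on a 0 was not tested. Shared sequence was rarer: none of the 28 members at an RPKM of 1 or more had 50% or more of its words in another annotation entry, and 3 shared any word. Among all 199 members searched, Trpc2 did, and the match was an overlapping entry of the same name.

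**Figure D4:**
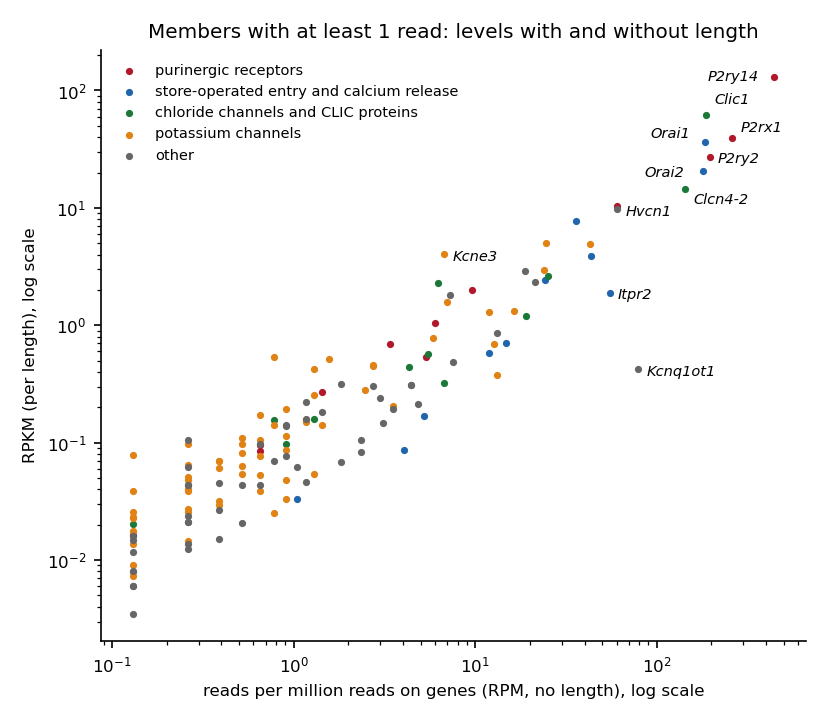
RPKM, per length, against RPM, without length, for the 148 members with at least 1 read, both on log axes, 1 point per gene, coloured by kind of protein. P2ry14 is highest on both axes, and Kcnq1ot1 and Itpr2 lie low on RPKM for their reads.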

How the data were processed

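CEL-Seq libraries were made from sorted colonic eosinophils, 2 samples with 3 technical replicates each. STAR 2.4.2a, DESeq and the build mm10 are named, per the submitters' processing notes. How reads were counted, with or without strand, was not given in the sources used here, nor were the lengths behind RPKM. The deposited RPKM values were computed by the authors, per the file headers, and the deposited read totals are means: 6 times each is whole within 0.001 for 100% of rows. Values per sample were not analysed here, and there were 0 columns of other samples.

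One row per gene symbol, that with the most reads and, at a tie, the higher RPKM, was kept. Reads were multiplied by 6 for exact Poisson intervals at 95%, scaled to RPKM; ratios have exact binomial intervals. Amplified copies count as separate reads, and the depth of single libraries was not used. RPM divides by the reads on genes, 1282020 per library. No test was possible with 1 group. The members and lists were chosen with earlier results of these data known.

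Named genes are members at an RPKM of 10 or more, the 3 highest of each family at 1 or more, a list of members known in leukocytes, up to 3 members of a family listed at 0, and the 3 highest of each partner list; others were named after their values were seen, and some genes that the rule names are not reported here. Partner and marker genes were matched through RefSeq (156 of 156). Shared 35-base words and overlapping exons were searched in the last 500 bases of GENCODE M21 transcripts. Alternatives were other minimums, RPM, the row with the highest RPKM, all rows added and leaving out members that share 50% or more of their words. The work ran in Python 3.11.15 with scipy 1.17.1, numpy 2.4.6, matplotlib 3.10.9 and pandas 2.3.3; intervals and the word search were tested on simulated data.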

Additional observations from a re-analysis of the deposited data

How the results depend on the processing

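The number of members at the detection minimum was 28 at an RPKM of 1 and moved to 148 for any RPKM above 0, 11 at an RPKM of 5 and 73 at an RPM of 1, where all genes gave 69.0%, 14.2% and 50.9%. It was 28 with the row of highest RPKM and 31 with all rows added. Leaving out members that share 50% or more of their words removed 1 gene under an RPKM of 1, so that this count could not change. The partner lists gave 36 genes at an RPKM of 1, 58 above 0, 15 at an RPKM of 5 and 52 at an RPM of 1. The median member RPKM was 0.0542, 0.108 over members above 0 and 0.0673 with all rows added. By RPM, 9 of the first 10 members were shared with the order by RPKM, and Kcnq1ot1 entered in place of Orai3. Of 49 named members, the RPKM of 6 left its interval with all rows added and that of 1, Clcn3, with the row of highest RPKM; there, rows that repeat the same reads are added more than once. The rank of 25 left the range its interval allows when length was dropped. No paired analysis was possible because the table holds 1 value per transcript for the group, and for the same reason no sample could be left out.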

Other observations

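Channel genes outside the member families, looked up after the members were seen, were also low. Of 126 genes in 12 further families, 12 reached an RPKM of 1, where 31.0% of all genes did, and 54 were listed at 0, where 31.0% of all genes were. Aqp9, the water and glycerol channel of leukocytes, stood at 16.1 from 680 reads, and Ano6 at 13.6 (12.9 to 14.4). Grin3b, a glutamate receptor chain, had 11.3 (10.5 to 12.2), but the last 500 bases of its transcript lie within exons of Tmem259 on the other strand, so its reads cannot be told apart from those of Tmem259 if the counting ignored strand. Aqp8, the aquaporin of the colon surface, stood at 6.69, the connexin gene Gjb1 at 3.41 and the epithelial sodium channel chain Scnn1a at 1.74, beside the epithelial markers at 5.09 to 89.3; the part of epithelial RNA in these values was not tested. None of the nicotinic, GABA-A, glycine, serotonin or acid-sensing channel genes reached an RPKM of 1, with Chrnb1 highest at 0.952.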
